A study of Peniophora incarnata with 12 samples.

Results

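The peptidases and proteases of Peniophora incarnata strain T-7 are 215 of the 16059 genes measured. They were chosen by description alone: the words peptidase, protease, proteinase, pepsin or subtilisin took a gene in, and inhibitors, proteasome and ubiquitin components, signal peptidases, and mitochondrial, autophagy and heat shock proteins were left out. The members carry 71 different descriptions, most of them the name of a protein from another fungus, and no enzyme activity was measured here. Gene ontology terms place 97 members outside the cell and 44 in the vacuole. The rule also takes in 4 genes described as prtT, which in Aspergillus is a transcription factor of secreted proteases and not itself a protease.

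As a white-rot basidiomycete, P. incarnata breaks down both the lignin and the polysaccharides of wood. Mycelium of the wild type strain was harvested after 30 days at 28 °C and 75% relative humidity. It grew on powder (60 mesh, 250 µm) of poplar wood, of Chinese fir wood or of rice straw, or, as the control, on the rich medium PDA (potato dextrose agar). The 4 groups had 3 biological replicates each, and no other treatment was given. PDA has no particle size, so a difference from PDA cannot be told apart from one of the physical form of the medium. Each group stands for a single material, so a difference between them cannot be assigned to hardwood, softwood or grass.

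Fungal peptidases work in series. Secreted endopeptidases cut protein inside the chain, tripeptidyl- and dipeptidyl-peptidases, carboxypeptidases and aminopeptidases shorten it from its ends, and transporters take up the peptides and amino acids that result. Vacuolar peptidases turn over the cell's own protein in the same way. Wood holds little nitrogen, and wood-decay fungi are known to recover it from protein, that of their own older hyphae included.

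Expression was deposited as FPKM, fragments scaled by the length of the gene and by the reads of the library, so that levels are per length and can be set side by side between genes. The libraries rested on 23398461 to 31132066 reads, and a level of 1 FPKM was 33.1 to 44.0 reads at the median coding length of 1413 bp. Of the 215 members, 198 reached 1 FPKM in at least 3 libraries and were tested, and the other 17 had means of at most 1.24 FPKM. Changes are given as differences of log2(FPKM + 1), a scale that understates those of low genes, and a gene was called at an adjusted p under 0.05 with a change of at least 1 on that scale (limma, adjusted over 13974 genes). The poplar wood libraries varied most: the median SD of the members on the log2 scale was 0.43 on poplar wood, 0.17 on Chinese fir wood, 0.17 on rice straw and 0.14 on PDA. The fit used 1 spread per gene shared by the 4 groups. A gene's SE is therefore the same in every comparison and also depends on libraries outside it. Where poplar wood is the least even group, this SE can understate the spread there. Chinese fir wood replicate 1, rice straw replicate 3 and PDA replicate 2 lay close to a mixture of the other libraries of their group, the chi-square of that fit being 5.90, 7.65 and 5.03 per gene in that order against 28.4 to 57.7 for the others of those groups, so results are also given without these 3 intermediate libraries. All genes together had median log2 changes of -0.18 for poplar wood, -0.51 for Chinese fir wood and -0.25 for rice straw against PDA, and median-of-ratios scaling brought these to 0.02, -0.02 and -0.01. In whole mycelium, fewer cells of a kind and less RNA per cell cannot be told apart.

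Transcript of the peptidases was concentrated in few genes, 10 of which held 44.6% of the summed mean FPKM. First of these was A06816, a subtilisin-like serine protease described after the Penicillium allergen Pen c 2 and the only subtilisin of the group. It had 1036, 967 and 580.4 FPKM for poplar wood, 607, 689 and 545 for Chinese fir wood, 1425, 1044 and 1219 for rice straw and 896, 839 and 773 for PDA. All 3 Chinese fir wood libraries were below and all 3 rice straw libraries above those of PDA, yet the log2 changes were 0.00, -0.45 and 0.55 for poplar wood, for Chinese fir wood and for rice straw, and none was called. A07979, a homolog of vacuolar protease A, the aspartic protease that activates other vacuolar hydrolases in yeast, stayed within 688 to 865 FPKM for poplar wood, 621 to 682 for Chinese fir wood, 765 to 899 for rice straw and 724 to 886 for PDA, and was called in no comparison. Among the abundant aspartic proteases, A11630 and A11499 (both described as CTSD) and A18308 were likewise called in no comparison. The extracellular metalloproteinases A11019 and A05675, of the fungalysin type, averaged 287 and 268 FPKM for poplar wood, 309 and 269.6 for Chinese fir wood, 222 and 208 for rice straw, and 364 and 352 for PDA, and were not called either. The remaining genes of the 10, A00837, A00467 and A04842, did change and are described with their classes.

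Summed over all members, FPKM averaged 12758 ± 1995 for poplar wood, 10016 ± 583 for Chinese fir wood, 11614 ± 616 for rice straw and 9583 ± 77.6 for PDA (SD, n = 3 each). The mean shares of library FPKM were 1.75%, 1.25%, 1.46% and 1.29% in that order, which puts Chinese fir wood below PDA. Its libraries, at 1.25%, 1.35% and 1.16%, lay on both sides of those of PDA. A higher peptidase total on Chinese fir wood than on PDA is therefore not shown. The aspartic class, which includes the aspergillopepsin-2 genes, was the largest in sum, with 6161, 5092 and 4962 FPKM for poplar wood, 3847, 3963 and 3845 for Chinese fir wood, 5399, 4693 and 4928 for rice straw and 3091, 3352 and 3626 for PDA. Every library from the 3 plant materials lay above every PDA library in the summed FPKM of this class. As a share of library FPKM, Chinese fir wood overlapped PDA, at 0.481%, 0.505% and 0.472% beside 0.420%, 0.453% and 0.486%. Poplar wood and rice straw stayed above PDA. The dipeptidyl and oligopeptidase class had higher means on both woods, at 2353, 1538 and 759 FPKM for poplar wood and 1440.0, 1876 and 1033 for Chinese fir wood, against 762, 718 and 729 for rice straw and 655, 653 and 649 for PDA. Poplar wood replicate 3 lay within the rice straw range. The height on wood lay in 1 gene, prolyl oligopeptidase A00837, without which the class averaged 186 FPKM for poplar wood, 188 for Chinese fir wood, 391 for rice straw and 323 for PDA. Carboxypeptidases summed to 712, 686 and 688 FPKM on poplar wood, above all other libraries, which lay between 379.7 and 399.4. These sums are descriptions, and no test was made of them.

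**Figure D1:**
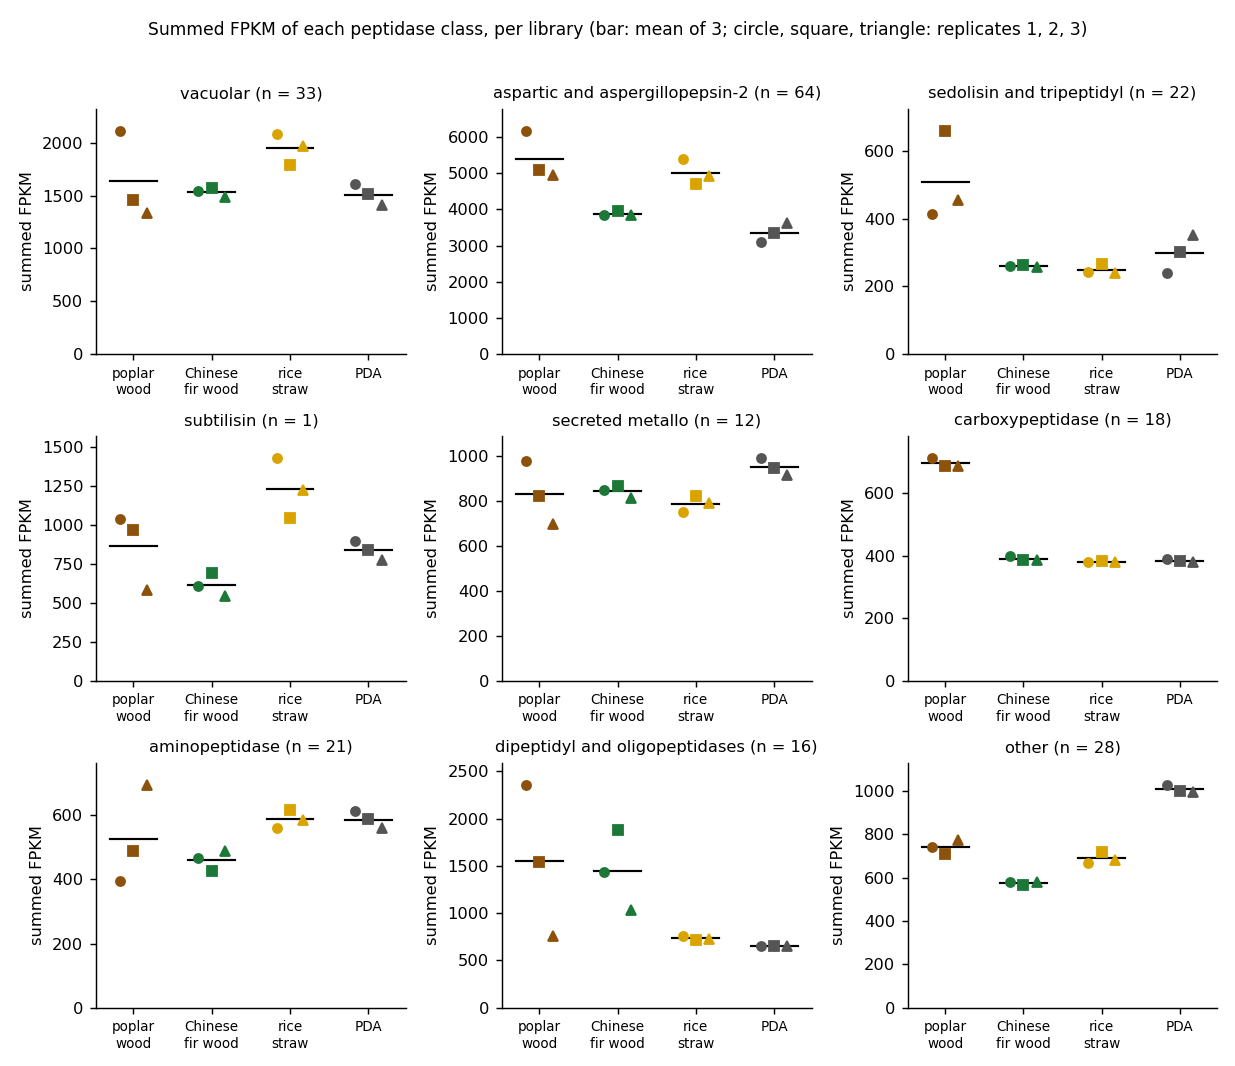
Summed FPKM of the 9 classes of peptidases (vertical axes, linear, from 0) in each library of the 4 groups, with the number of genes in each class; bars are means of 3. In these sums the aspartic class lies above PDA on all 3 plant materials, the dipeptidyl and oligopeptidase class has its highest means on both woods, and the carboxypeptidase class stands out on poplar wood. As a share of library FPKM, Chinese fir wood overlapped PDA in the aspartic class.

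Against PDA, 18 members rose and 22 fell on poplar wood, 18 rose and 38 fell on Chinese fir wood, and 19 rose and 14 fell on rice straw. As shares of the 198 tested, 9.09% rose on poplar wood where 8.3% of all genes did, and 11.1% fell where 17.1% of all genes did. On Chinese fir wood 9.09% rose beside a background of 5.91%, and 19.2% fell beside 24.5%. On rice straw 9.6% rose beside 6.81%, and 7.07% fell beside 14.1%. The shares of all genes in these comparisons are also the background for the class and description counts below. The peptidases' median log2 changes were -0.13, -0.33 and -0.02 for poplar wood, for Chinese fir wood and for rice straw, each somewhat above the median of all genes. With median-of-ratios scaling the counts were 27 higher and 12 lower on poplar wood (11.3% and 12.6% of all genes), 28 and 17 on Chinese fir wood (11.7% and 11%), and 29 and 11 on rice straw (10% and 8.25%). Without the 3 intermediate libraries, rice straw had 6 higher and 9 lower and poplar wood 14 lower. That leaves 2 libraries in each group except poplar wood, which keeps 3. Fewer genes of any kind were then called. The share called in none of these comparisons went from 60.1% to 72.4% of members and from 52.3% to 66.6% of all genes.

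The 3 comparisons share the PDA libraries, so that a gene with unusual PDA values moves in all of them. With that limit, 7 members (3.54% of those tested, beside 1.18% of all genes) were called higher on all 3 plant materials (the aspartic proteases A00467, A11130, A03132 and A18832, the aspergillopepsin-2 genes A03170 and A05374, and the sedolisin A01964). Lower on all 3 were A06284 (sed2), A09933 (dapB), A08898 (an aspartic protease) and A18397, an extracellular serine carboxypeptidase, which is 2.02% of members beside 5.06% of all genes. Without the intermediate libraries only A11130 was higher and only A06284 lower on all 3, or 0.51% of the 196 members then tested for each, beside 0.47% and 3.06% of all genes. With median-of-ratios scaling 10 were higher on all 3 and 2 lower, beside 1.85% and 2.93% of all genes. Between the plant materials the call went in opposite directions for A03251 and A16042, 1.01% of those tested beside 2.22% of all genes. No member had this pattern with that scaling or without the intermediate libraries, where 1.95% and 0.622% of all genes had it. In none of these 3 comparisons were 119 tested members called, 60.1% beside 52.3% of all genes. An F test among the 4 groups passed for 141 of the 198 members, where 74% of all genes passed.

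**Figure D2:**
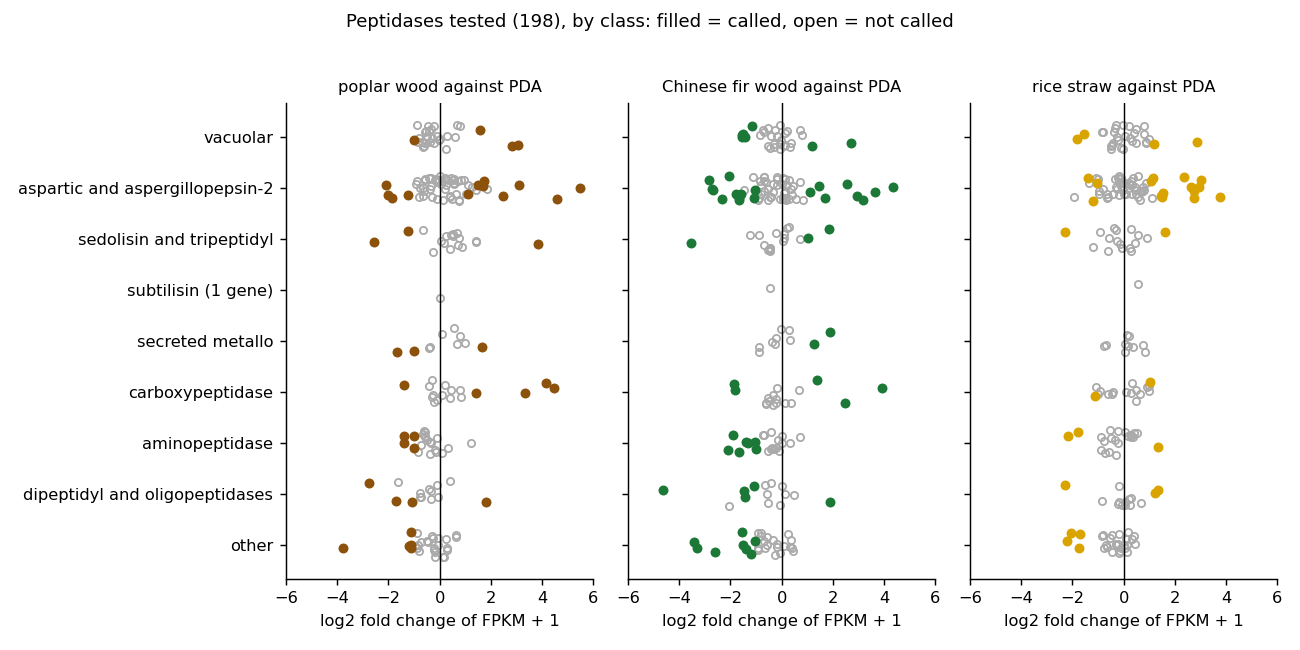
Log2 fold change of FPKM + 1 (horizontal axis) of the 198 tested members by class, for poplar wood, for Chinese fir wood and for rice straw against PDA; filled points were called. The largest rises are in the aspartic and carboxypeptidase classes on both woods and in the aspartic and vacuolar classes on rice straw. The aminopeptidase and other classes have few or no genes called higher.

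Among the 11 genes described as aspergillopepsin-2, a secreted acid endopeptidase that in Aspergillus belongs to the glutamic peptidases, 5 rose and none fell on poplar wood, 4 rose and 2 fell on Chinese fir wood, and 4 rose and none fell on rice straw, against PDA. The same counts of rises came with median-of-ratios scaling except on poplar wood, where they were 6. A03170 had the largest rise of all members, with 36.6, 112 and 35.0 FPKM for poplar wood, 2.38, 2.81 and 1.88 for Chinese fir wood and 17.2, 2.25 and 12.2 for rice straw, against 0, 0.344 and 0.285 for PDA. All plant material libraries were above all PDA libraries, poplar wood replicate 2 was the highest, and rice straw replicate 2 was far below the other rice straw libraries. The log2 change was 5.48 (SE 0.57, adjusted p = 2.07e-05) for poplar wood, 1.47 (SE 0.57, adjusted p = 0.0474) for Chinese fir wood and 2.94 (SE 0.57, adjusted p = 0.00198) for rice straw (limma). On Chinese fir wood the call was lost when any library of Chinese fir wood or PDA, or rice straw replicate 3, was left out. With the replicate number as a block it was 1.47 (adjusted p = 0.0703, limma) and not called, nor was it called with voom, with no filter on low values or with a pseudocount of 5. Leaving out the intermediate libraries ended it too, and also ended the call on rice straw (2.76, adjusted p = 0.0525).

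A05374 was graded across the groups. It had 136, 235 and 256 FPKM for poplar wood, 50.8, 31.1 and 73.1 for Chinese fir wood and 16.6, 15.3 and 20.8 for rice straw, against 4.99, 8.03 and 10.004 for PDA. No 2 groups overlapped, and the log2 change against PDA was 4.59 (SE 0.34, adjusted p = 2.01e-06) for poplar wood, 2.57 (SE 0.34, adjusted p = 8.78e-05) for Chinese fir wood and 1.13 (SE 0.34, adjusted p = 0.0208) for rice straw (limma). The small change on rice straw was no longer called without PDA replicate 1, where it was 0.89, nor without rice straw replicate 1 or 3, without the intermediate libraries (1.06, adjusted p = 0.194) or with a pseudocount of 5.

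A01411 and A13890 showed the reverse order between the woods. A01411 had 7.71, 15.4 and 9.71 FPKM for poplar wood, 274, 95.8 and 409 for Chinese fir wood and 174, 118 and 153 for rice straw, against 9.13, 11.0 and 9.36 for PDA. It was thus low on poplar wood and PDA, whose libraries overlapped, and high on Chinese fir wood and rice straw, whose libraries also overlapped. Its log2 change against PDA was 4.36 (SE 0.43, adjusted p = 1.02e-05) for Chinese fir wood and 3.77 (SE 0.43, adjusted p = 5.23e-05) for rice straw against PDA, and -4.27 (SE 0.43, adjusted p = 3.05e-05) for poplar wood against Chinese fir wood (limma). A13890 has the same coding length of 819 bp and almost the same profile, with 10.4, 12.3 and 6.94, then 186, 94.1 and 269.7, then 159, 72.6 and 109.8 FPKM for poplar wood, for Chinese fir wood and for rice straw, against 12.3, 11.3 and 13.9 on PDA. If these are near-identical copies, reads could have been split between them, which was not tested.

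A04842 is the most abundant aspergillopepsin-2 gene and was called only for poplar wood against rice straw, at 1.81 (SE 0.45, adjusted p = 0.00593, limma). It had 302, 295 and 1011 FPKM for poplar wood, where replicate 3 alone was high, 221, 157 and 295 for Chinese fir wood and 81.4, 180.3 and 139.7 for rice straw, against 227, 284 and 311 for PDA. Without poplar wood replicate 3 the log2 change from rice straw was 1.23. A04867 and A16378, a pair of 1512 bp named after their values were seen, were also highest in poplar wood replicate 3. A04867 had 17.3, 34.9 and 72.1 FPKM on poplar wood against 5.44, 4.46 and 7.14 on PDA, and A16378 had 20.8, 38.6 and 101 against 9.37, 12.9 and 16.3, with log2 changes of 2.46 (SE 0.40, adjusted p = 0.000523) and 1.72 (SE 0.45, adjusted p = 0.00901, limma), that of A16378 not being called without the intermediate libraries (adjusted p = 0.0627). Over the 11 genes, 7 were higher and 2 lower on poplar wood than on Chinese fir wood, and the counts were also 7 and 2 for poplar wood against rice straw. Among all genes 17.5% were higher and 6.73% lower in the first comparison, and 14.4% each way in the second. The whole aspartic class, 59 genes tested, had 16 higher and 5 lower on poplar wood than on Chinese fir wood. With median-of-ratios scaling that class had 7 and 6. Against PDA the class had 8 higher and 4 lower on poplar wood, 8 and 11 on Chinese fir wood, and 12 and 3 on rice straw. These were 13.6% and 6.78%, 13.6% and 18.6%, and 20.3% and 5.08% of those tested. Scaled by median of ratios they were 12 and 4, 11 and 6, and 13 and 1.

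Among the pepsin-type aspartic proteases, A00467 is described as pepA, the main secreted acid protease of Aspergillus. A00467 had 1412, 684 and 164 FPKM for poplar wood, 490.0, 593 and 386 for Chinese fir wood and 432, 344 and 385 for rice straw, against 40.9, 66.3 and 85.3 for PDA. Every plant material library exceeded every PDA library, and the poplar wood libraries spanned more than the other groups together. On the log2 scale the change was 3.12 (SE 0.58, adjusted p = 0.00127) for poplar wood, 2.95 (SE 0.58, adjusted p = 0.00147) for Chinese fir wood and 2.63 (SE 0.58, adjusted p = 0.00445) for rice straw (limma). Leaving out poplar wood replicate 1 gave 2.43 and leaving out replicate 3 gave 3.98, and without the intermediate libraries the rise on rice straw was not called (2.68, adjusted p = 0.0694).

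A18832, described as a vacuolar aspartic protease, followed A00467 within poplar wood, with 334, 87.2 and 22.5 FPKM there, 81.5, 102 and 64.5 for Chinese fir wood and 108, 75.5 and 90.8 for rice straw, against 10.6, 12.4 and 11.7 for PDA. No plant material library was as low as PDA. Relative to PDA the log2 change was 2.82 (SE 0.67, adjusted p = 0.00542) for poplar wood, 2.71 (SE 0.67, adjusted p = 0.00563) for Chinese fir wood and 2.87 (SE 0.67, adjusted p = 0.00593) for rice straw (limma). On poplar wood it ranged from 1.86 without replicate 1 to 3.78 without replicate 3. Without the intermediate libraries it was 2.76 (adjusted p = 0.0626) for Chinese fir wood and 2.91 (adjusted p = 0.079) for rice straw, neither called.

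A03132 is 1 of 9 genes described as polyporopepsin, an aspartic protease first known from the white-rot fungus Irpex lacteus. It had 151, 44.1 and 43.9 FPKM for poplar wood, 73.8, 115 and 35.3 for Chinese fir wood and 153, 124 and 136 for rice straw, against 23.7, 20.3 and 16.0 for PDA. The groups did not overlap with PDA, and rice straw was the most even. The log2 change was 1.70 (SE 0.47, adjusted p = 0.0127) for poplar wood, 1.71 (SE 0.47, adjusted p = 0.0103) for Chinese fir wood and 2.74 (SE 0.47, adjusted p = 0.00094) for rice straw (limma), with 1.12 for poplar wood when replicate 1 was left out. Without the intermediate libraries the adjusted p was 0.0765 on poplar wood and 0.103 on Chinese fir wood. Of the 9 polyporopepsin genes, 1 rose and none fell on poplar wood, 2 rose and 2 fell on Chinese fir wood, and 1 rose and none fell on rice straw. With median-of-ratios scaling 4 rose and none fell on Chinese fir wood.

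The largest description, plain aspartic protease, had 29 genes, of which 26 were tested. On poplar wood 1 rose and 4 fell, on Chinese fir wood 1 rose and 5 fell, and on rice straw 3 rose and 1 fell. A11130 was the 1 that rose on all 3, with 34.6, 31.2 and 27.7 FPKM for poplar wood, 133, 113 and 157 for Chinese fir wood and 109, 92.1 and 95.4 for rice straw, against 18.4, 14.0 and 10.5 for PDA. Its groups did not overlap with PDA, and Chinese fir wood was the highest. Its log2 change against PDA was 1.1 (SE 0.21, adjusted p = 0.00152) for poplar wood, 3.16 (SE 0.21, adjusted p = 6.31e-07) for Chinese fir wood and 2.73 (SE 0.21, adjusted p = 3.33e-06) for rice straw (limma). The change on poplar wood was 0.91 and no longer called without PDA replicate 3.

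A11242 and A08898 went the other way. A11242 had 2.86, 5.54 and 7.20 FPKM for poplar wood, 2.87, 1.98 and 2.37 for Chinese fir wood and 9.09, 14.6 and 10.2 for rice straw, against 25.6, 22.2 and 21.1 for PDA, all PDA libraries being the highest. It fell by 2.01 on the log2 scale on poplar wood (adjusted p = 0.000131) and by 2.82 on Chinese fir wood (adjusted p = 9.03e-06, limma). A08898, of the same coding length of 1164 bp, averaged 4.65 ± 2.57 FPKM for poplar wood, 2.47 ± 0.802 for Chinese fir wood and 8.81 ± 2.22 for rice straw, against 21.3 ± 0.784 for PDA (SD, n = 3). Its fall on rice straw, -1.21 (adjusted p = 0.0152, limma), was not called with median-of-ratios scaling, without the intermediate libraries, or without rice straw replicate 1 or 3. A00456 was lowest on poplar wood, with 15.1, 30.99 and 16.0 FPKM there, 56.1, 64.7 and 46.1 for Chinese fir wood and 116, 115 and 111 for rice straw, against 69.0, 71.4 and 80.8 for PDA, a log2 change of -1.85 (SE 0.25, adjusted p = 0.000114) for poplar wood (limma).

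**Figure D3:**
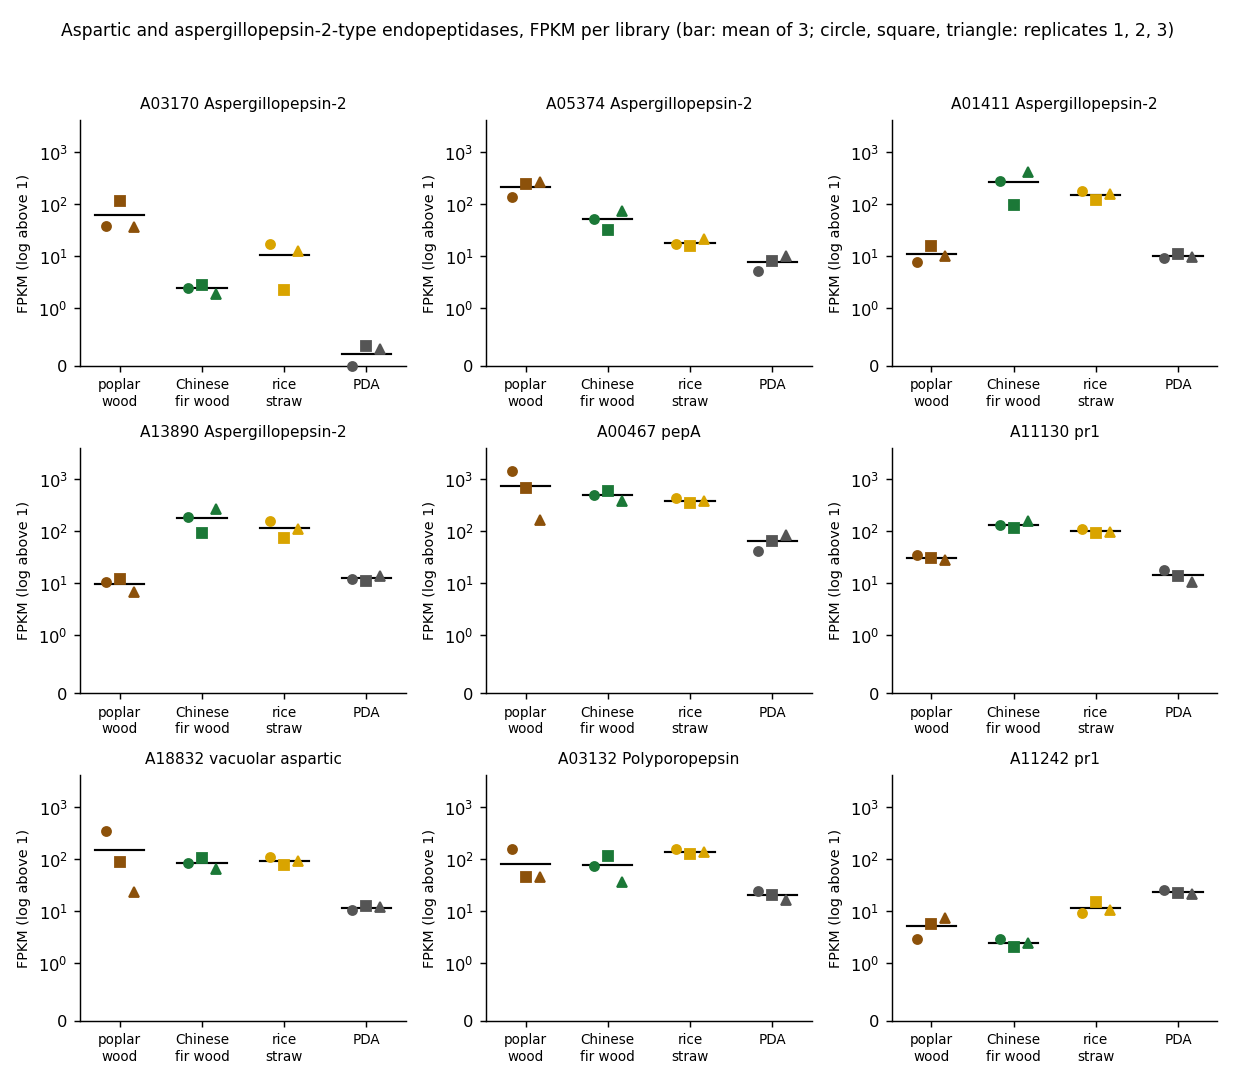
FPKM in each library (vertical axis, log scale above 1 and linear below) of 9 aspartic and aspergillopepsin-2-type endopeptidases in the 4 groups; bars are means of 3. A03170, A05374, A00467, A11130, A18832 and A03132 lie above PDA on all 3 plant materials, A01411 and A13890 on Chinese fir wood and rice straw, and A11242 lies below PDA.

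Secreted metalloendopeptidases gave few calls: of 10 tested, 1 rose and 2 fell on poplar wood, 2 rose and none fell on Chinese fir wood, and none changed on rice straw. All of these were peptidyl-Lys metalloendopeptidases, a type known from the mushroom Grifola frondosa that cuts next to lysine. With median-of-ratios scaling the class had 3 rises and 1 fall on poplar wood and 2 rises on rice straw. Unscaled, 10% rose and 20% fell on poplar wood, beside 8.3% and 17.1% of all genes. On Chinese fir wood 20% rose, beside 5.91%. The 4 peptidyl-Lys genes form 2 pairs of equal coding length, of which 1 held the rises and the other the falls, and those given here were chosen after their values were seen. A10595 had 12.9, 14.4 and 2.46 FPKM on poplar wood and 10.3, 16.1 and 5.01 on Chinese fir wood, against 0.850, 2.66 and 2.52 on PDA, log2 changes of 1.65 (adjusted p = 0.028) and 1.87 (adjusted p = 0.0129, limma). Poplar wood replicate 3 lay within the PDA range, so the groups overlapped there, and neither rise was called without the intermediate libraries (adjusted p = 0.0863 and 0.0825). A10615 had 6.10, 5.22 and 3.73 FPKM on poplar wood against 18.7, 14.6 and 20.6 on PDA, a log2 change of -1.66 (SE 0.30, adjusted p = 0.000902) with no overlap (limma).

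The sedolisins described as tripeptidyl-peptidases are acid enzymes that release tripeptides from the start of a chain. Of the 18 tested genes with sedolisin or tripeptidase descriptions, 1 rose and 2 fell on poplar wood, 2 rose and 1 fell on Chinese fir wood, and 1 rose and 1 fell on rice straw. With median-of-ratios scaling these were 3 and 1, 3 and 1, and 2 and 1, and the class also holds genes named DUG2, which in yeast take part in glutathione breakdown. Unscaled rises were 5.56%, 11.1% and 5.56% of those tested, beside 8.3%, 5.91% and 6.81% of all genes. The falls were 11.1%, 5.56% and 5.56%, beside 17.1%, 24.5% and 14.1%. The main member, A01964 (sed3), had 149.7, 251 and 218 FPKM for poplar wood, 51.6, 65.8 and 36.1 for Chinese fir wood and 53.8, 37.0 and 38.6 for rice straw, against 6.90, 14.3 and 22.5 for PDA. Poplar wood stood above all other libraries, and Chinese fir wood and rice straw overlapped each other but not PDA. On the log2 scale the change was 3.84 (SE 0.37, adjusted p = 1.15e-05) for poplar wood, 1.84 (SE 0.37, adjusted p = 0.00155) for Chinese fir wood and 1.62 (SE 0.37, adjusted p = 0.00493) for rice straw (limma), the change on rice straw not being called without the intermediate libraries (1.75, adjusted p = 0.068).

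A06284 (sed2) went the opposite way. It had 10.9, 11.3 and 11.4 FPKM for poplar wood, 4.90, 7.40 and 4.01 for Chinese fir wood and 13.5, 14.1 and 14.1 for rice straw, against 75.9, 73.0 and 66.7 for PDA. Every PDA library was well above every other. Relative to PDA the log2 change was -2.58 (SE 0.19, adjusted p = 2.19e-06) for poplar wood, -3.53 (SE 0.19, adjusted p = 2.13e-07) for Chinese fir wood and -2.29 (SE 0.19, adjusted p = 6.39e-06) for rice straw (limma), and all 3 calls held in every alternative run. Of all genes, 17.5% were higher and 6.73% lower on poplar wood than on Chinese fir wood (9.64% and 11.4% with median-of-ratios scaling). Of 9 tested sed3 genes, 5 were higher and none lower in this comparison, or 3 and 1 with that scaling. In 3 of these, named after their values were seen, poplar wood replicate 2 stood far above the others: A02829 had 2.69, 36.6 and 3.22 FPKM on poplar wood against 1.34, 1.02 and 1.46 on Chinese fir wood, A04098 had 4.76, 33.4 and 5.30 against 2.04, 2.82 and 2.70, and A08392 had 4.08, 30.2 and 4.43 against 2.23, 1.54 and 1.04. None of these 3 was called without the intermediate libraries (adjusted p = 0.133, 0.132 and 0.0634).

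Serine carboxypeptidases, which remove residues from the end of a chain, gave some of the largest rises on wood. In the class of 17 tested carboxypeptidases, 4 rose and 1 fell on poplar wood, 3 rose and 2 fell on Chinese fir wood, and 1 rose and 1 fell on rice straw. Scaled by median of ratios they were 4 and 1, 4 and 2, and 4 and 0. Unscaled rises were 23.5%, 17.6% and 5.88% of those tested, beside 8.3%, 5.91% and 6.81% of all genes. The falls were 5.88%, 11.8% and 5.88%, beside 17.1%, 24.5% and 14.1%. A01865, described as extracellular, had 107, 71.7 and 109 FPKM for poplar wood, 67.1, 56.2 and 72.9 for Chinese fir wood and 8.09, 6.90 and 6.65 for rice straw, against 2.29, 3.44 and 4.47 for PDA. Both woods were far above rice straw, and rice straw was above PDA without overlap. The log2 change was 4.47 (SE 0.23, adjusted p = 4.27e-07) for poplar wood, 3.94 (SE 0.23, adjusted p = 2.85e-07) for Chinese fir wood and 0.93 (SE 0.23, adjusted p = 0.00821) for rice straw (limma), the last under the threshold of 1.

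A03363 (ARB_06414), the most abundant carboxypeptidase, was graded like A05374. It had 301, 269.9 and 160.1 FPKM for poplar wood, 78.4, 107 and 44.7 for Chinese fir wood and 30.1, 19.7 and 27.2 for rice straw, against 6.12, 14.7 and 19.9 for PDA. Poplar wood was above Chinese fir wood and Chinese fir wood above rice straw, each without overlap, while rice straw replicate 2 came within the PDA range. Its log2 change against PDA was 4.15 (SE 0.41, adjusted p = 1.5e-05) for poplar wood, 2.46 (SE 0.41, adjusted p = 0.000506) for Chinese fir wood and 0.98 (SE 0.41, adjusted p = 0.0824) for rice straw (limma), the last not called. A06518, extracellular like A01865, averaged 42.7 ± 10.6 FPKM for poplar wood, 9.95 ± 1.13 for Chinese fir wood and 4.15 ± 0.936 for rice straw, against 3.37 ± 1.41 for PDA (SD, n = 3), and was called on both woods, at 3.34 (adjusted p = 2.82e-06) and 1.37 (adjusted p = 0.00115, limma). Its call on Chinese fir wood was lost with a pseudocount of 5. A18397, of the same description and named after its values were seen, was lower on all 3: it had 26.3, 41.7 and 41.2 FPKM for poplar wood, 27.5, 19.4 and 32.0 for Chinese fir wood and 41.5, 43.9 and 43.7 for rice straw, against 98.4, 95.7 and 91.4 for PDA. On the log2 scale the change was -1.39 (SE 0.22, adjusted p = 0.000409) for poplar wood, -1.84 (SE 0.22, adjusted p = 4.32e-05) for Chinese fir wood and -1.13 (SE 0.22, adjusted p = 0.00206) for rice straw (limma), and the change on rice straw was not called with median-of-ratios scaling or without the intermediate libraries (adjusted p = 0.0719).

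A11744 rose on poplar wood alone among the comparisons with PDA. It is described as carboxypeptidase S1, a secreted serine carboxypeptidase in Penicillium, and the naming pattern used here counted it with the vacuolar class. It had 119, 90.2 and 116 FPKM for poplar wood, 12.3, 16.7 and 7.26 for Chinese fir wood and 11.5, 11.2 and 11.2 for rice straw, against 8.19, 12.4 and 17.2 for PDA. Relative to PDA the log2 change was 3.05 (SE 0.29, adjusted p = 1.22e-05) against PDA, and poplar wood also differed from Chinese fir wood by 3.12 (SE 0.29, adjusted p = 2.21e-05) and from rice straw by 3.14 (SE 0.29, adjusted p = 8.65e-06, limma). Among the 30 tested vacuolar genes, 3 rose and 1 fell on poplar wood, 2 rose and 5 fell on Chinese fir wood, and 2 rose and 2 fell on rice straw. With median-of-ratios scaling these were 3 and 0, 4 and 1, and 5 and 2. Unscaled rises were 10%, 6.67% and 6.67% of those tested, beside 8.3%, 5.91% and 6.81% of all genes. The falls were 3.33%, 16.7% and 6.67%, beside 17.1%, 24.5% and 14.1%. The 8 tested genes named carboxypeptidase Y, the serine carboxypeptidase of the yeast vacuole, were not called against PDA on any material. A17669, a carboxypeptidase S, which in yeast is vacuolar, had 74.1, 37.0 and 37.9 FPKM for poplar wood, 22.7, 26.6 and 21.0 for Chinese fir wood and 22.5, 16.9 and 18.5 for rice straw, against 80.4, 76.1 and 56.2 for PDA. It fell by 1.55 on the log2 scale on Chinese fir wood (adjusted p = 0.000549), a call lost with median-of-ratios scaling, and by 1.82 for rice straw (adjusted p = 0.000291, limma).

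Aminopeptidases remove residues from the start of a chain. Of 21 tested, none rose and 4 fell on poplar wood, none rose and 7 fell on Chinese fir wood, and 1 rose and 2 fell on rice straw. Scaled by median of ratios they were 1 and 2, 1 and 3, and 1 and 2. Unscaled falls were 19%, 33.3% and 9.52% of those tested, beside 17.1%, 24.5% and 14.1% of all genes. A13333, described as aminopeptidase 1, had 10.1, 8.72 and 7.56 FPKM for poplar wood, 2.50, 2.999 and 1.97 for Chinese fir wood and 1.56, 3.14 and 2.37 for rice straw, against 13.7, 14.0 and 13.2 for PDA. Each group was below PDA without overlap, and the log2 change was -2.08 (SE 0.21, adjusted p = 1.18e-05) for Chinese fir wood and -2.15 (SE 0.21, adjusted p = 1.68e-05) for rice straw, while -0.59 for poplar wood was not called (limma). The single rise was A03125, a leucine aminopeptidase of a type secreted by other fungi. It had 39.2, 62.2 and 107 FPKM for poplar wood, 112, 103 and 126 for Chinese fir wood and 176, 178 and 175 for rice straw, against 73.2, 69.8 and 63.6 for PDA. Rice straw was the highest and very even, with a log2 change of 1.35 (SE 0.28, adjusted p = 0.00299, limma), which without the intermediate libraries was 1.36 with an adjusted p of 0.0728. A05703 (PEPP), named after its values were seen, had 9.17, 6.19 and 7.49 FPKM on poplar wood and 5.84, 4.64 and 4.21 on Chinese fir wood, against 23.1, 21.8 and 18.7 on PDA. It fell by 1.37 (adjusted p = 0.000144) and 1.92 (adjusted p = 1.02e-05, limma) on the log2 scale.

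Dipeptidyl peptidases and oligopeptidases act on short chains. Of 14 tested, 1 rose and 3 fell on poplar wood, 1 rose and 4 fell on Chinese fir wood, and 2 rose and 1 fell on rice straw. With median-of-ratios scaling these were 1 and 2, 2 and 1, and 2 and 1. Unscaled rises were 7.14%, 7.14% and 14.3% of those tested, beside 8.3%, 5.91% and 6.81% of all genes. The falls were 21.4%, 28.6% and 7.14%, beside 17.1%, 24.5% and 14.1%. The rise on both woods was A00837, prolyl oligopeptidase A, which cuts short peptides after proline. A00837 had 2209.9, 1359.5 and 523 FPKM for poplar wood, 1245, 1695 and 846 for Chinese fir wood and 353, 341 and 341 for rice straw, against 314, 331 and 343 for PDA. Both woods lay above all rice straw and PDA libraries, which were nearly equal. The log2 change was 1.82 (SE 0.42, adjusted p = 0.00433) for poplar wood, 1.88 (SE 0.42, adjusted p = 0.00295) for Chinese fir wood and 0.07 (SE 0.42, adjusted p = 0.914) for rice straw (limma). Poplar wood gave 1.35 without replicate 1 and 2.39 without replicate 3, and the change on Chinese fir wood was not called without the intermediate libraries (1.86, adjusted p = 0.0533).

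A09933, described as dipeptidyl-aminopeptidase B, an enzyme of the vacuolar membrane in yeast, fell furthest on Chinese fir wood. It had 1.61, 7.54 and 8.05 FPKM for poplar wood, 0.872, 0.435 and 0.476 for Chinese fir wood and 4.30, 10.3 and 7.87 for rice straw, against 75.1, 44.7 and 16.7 for PDA. The PDA libraries themselves differed severalfold, yet the lowest was above every plant material library. Its log2 change against PDA was -2.75 (SE 0.55, adjusted p = 0.0019) for poplar wood, -4.64 (SE 0.55, adjusted p = 4.17e-05) for Chinese fir wood and -2.29 (SE 0.55, adjusted p = 0.00692) for rice straw (limma), and the last was not called without the intermediate libraries (adjusted p = 0.0927).

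A03251, described as dipeptidyl-peptidase 5, a secreted enzyme of other fungi, had 14.9, 30.3 and 24.9 FPKM for poplar wood, 8.79, 10.2 and 5.87 for Chinese fir wood and 72.0, 55.5 and 66.3 for rice straw, against 20.1, 25.1 and 29.2 for PDA. Chinese fir wood was below and rice straw above every PDA library, and poplar wood overlapped with PDA. On the log2 scale the change was -1.49 (SE 0.27, adjusted p = 0.000869) for Chinese fir wood and 1.35 (SE 0.27, adjusted p = 0.00242) for rice straw (limma). Scaling by median of ratios gave -0.94 for Chinese fir wood, just short of the threshold, and without the intermediate libraries the rise on rice straw had an adjusted p of 0.0694. A16042, dipeptidyl peptidase 3, likewise split by material, with 11.2, 21.6 and 32.5 FPKM for poplar wood, 29.9, 28.5 and 29.7 for Chinese fir wood and 102, 97.7 and 103 for rice straw, against 47.9, 43.6 and 38.4 for PDA. It was named after its values were seen. Both woods were below and rice straw above every PDA library, and the log2 change was -1.07 (SE 0.29, adjusted p = 0.0103) on poplar wood and 1.21 (SE 0.29, adjusted p = 0.00633) on rice straw (limma). With median-of-ratios scaling the fall on poplar wood was not called, and without the intermediate libraries neither change was (adjusted p = 0.0862 and 0.11).

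**Figure D4:**
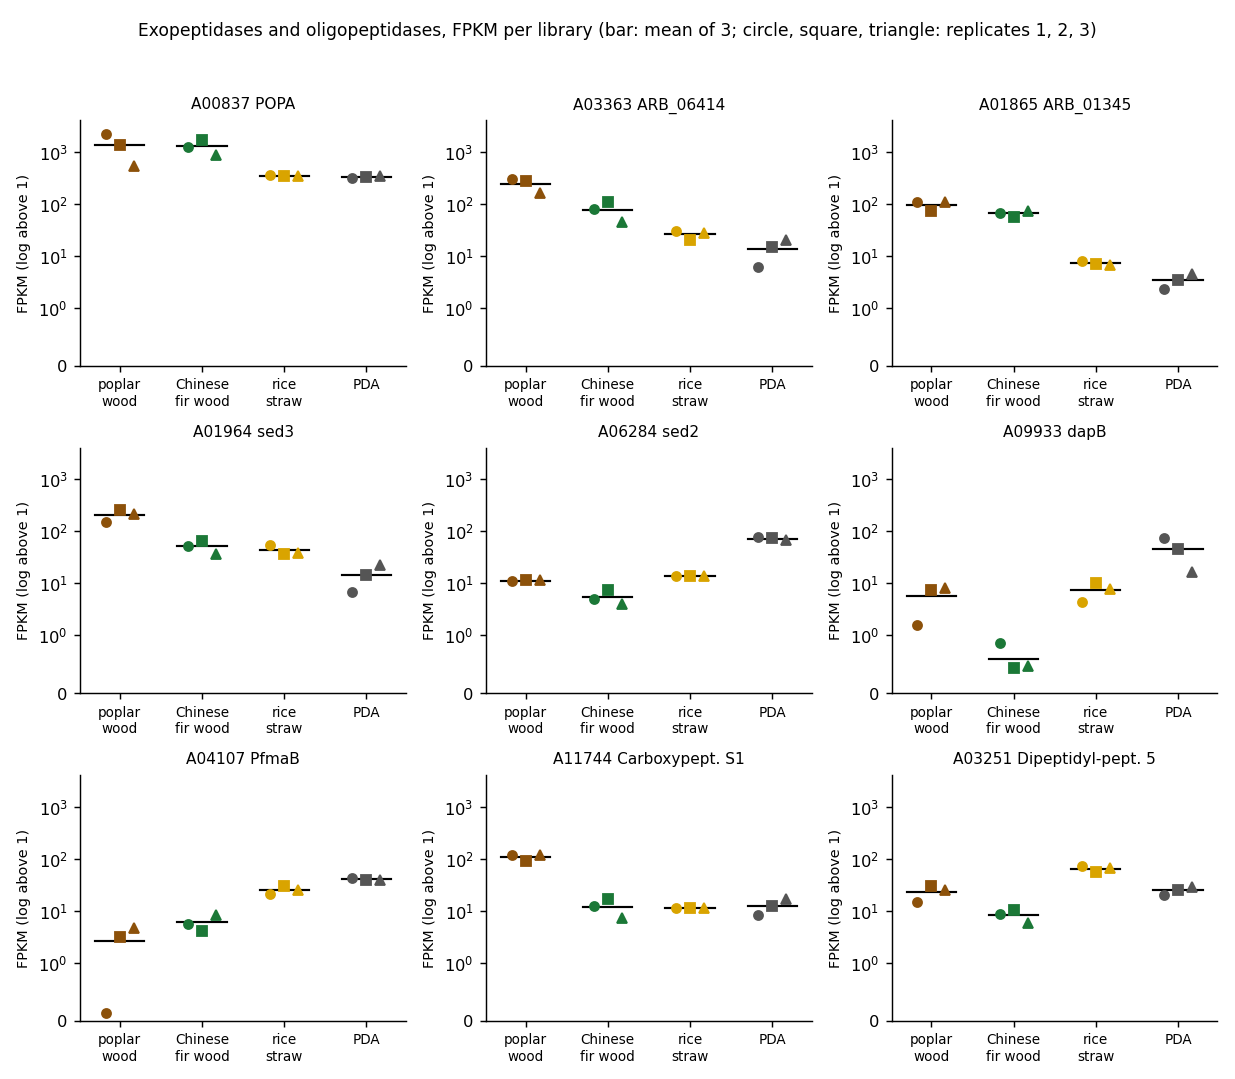
FPKM in each library (vertical axis, log scale above 1 and linear below) of 9 exopeptidases and oligopeptidases in the 4 groups; bars are means of 3. A00837 and A01865 are high on both woods, A03363 and A01964 step down after poplar wood, A06284 and A09933 are highest on PDA, and A11744 is high on poplar wood alone.

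In the remaining 28 genes, which include the prtT genes described below, no member rose against PDA. Falls numbered 5 for poplar wood, 8 for Chinese fir wood and 4 for rice straw. These were 17.9%, 28.6% and 14.3% of the class, near the 17.1%, 24.5% and 14.1% of all genes. With median-of-ratios scaling 1 rose on Chinese fir wood, and 1, 3 and 4 fell. A04107, a proline iminopeptidase, which removes a starting proline, had 0.130, 3.14 and 4.76 FPKM for poplar wood, 5.48, 4.16 and 8.38 for Chinese fir wood and 20.8, 30.0 and 24.8 for rice straw, against 43.1, 38.2 and 39.3 for PDA. Both woods were far below rice straw and PDA, and poplar wood replicate 1 was close to 0. Relative to PDA the log2 change was -3.78 (SE 0.47, adjusted p = 7.64e-05) for poplar wood and -2.60 (SE 0.47, adjusted p = 0.000837) for Chinese fir wood, while -0.67 for rice straw was not called (limma). A14891 and A18639, homologs of the peroxisomal Lon protease that clears damaged peroxisomal protein, were named after their values were seen. A14891 had 66.8, 37.5 and 35.9 FPKM for poplar wood, 29.2, 28.2 and 23.7 for Chinese fir wood and 24.7, 21.8 and 23.9 for rice straw, against 70.2, 80.2 and 84.6 for PDA. It fell by 1.5 on the log2 scale on Chinese fir wood (adjusted p = 0.000229) and by 1.70 for rice straw (adjusted p = 0.000165), and A18639 by 1.55 and 1.76 (adjusted p = 0.0013 and 0.000878, limma). The falls of both genes on Chinese fir wood were not called with median-of-ratios scaling.

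None of the 4 prtT genes rose on any material: 1 fell for poplar wood, 4 for Chinese fir wood and 2 for rice straw, against PDA. With median-of-ratios scaling none, 2 and 2 fell. A15557 had 33.4, 47.1 and 34.6 FPKM for poplar wood, 4.62, 5.04 and 5.29 for Chinese fir wood and 11.7, 17.0 and 14.6 for rice straw, against 56.7, 61.3 and 71.6 for PDA. No 2 groups overlapped. The log2 change was -0.72 (SE 0.20, adjusted p = 0.0116) for poplar wood, under the threshold, -3.42 (SE 0.20, adjusted p = 2.58e-07) for Chinese fir wood and -2.07 (SE 0.20, adjusted p = 1.47e-05) for rice straw (limma). A15489, of the same coding length of 2091 bp, averaged 39.1 ± 9.20 FPKM for poplar wood, 3.85 ± 0.441 for Chinese fir wood and 9.51 ± 1.94 for rice straw, against 47.6 ± 10.01 for PDA (SD, n = 3), and fell by 3.31 for Chinese fir wood (adjusted p = 6.31e-07) and 2.20 for rice straw (adjusted p = 2.32e-05) on the log2 scale (limma). Their calls on Chinese fir wood and rice straw held in every alternative run. A04193, the most abundant of the 4, had 46.6, 62.8 and 84.5 FPKM for poplar wood, 53.6, 47.1 and 54.9 for Chinese fir wood and 70.4, 87.0 and 71.9 for rice straw, against 147, 136 and 125 for PDA. It fell by 1.1 on poplar wood (adjusted p = 0.00145) and 1.37 on Chinese fir wood (adjusted p = 0.000259, limma) on the log2 scale, and scaled by median of ratios these were -0.87 and -0.79, not called. Without poplar wood replicate 1 the change on poplar wood was -0.89 and not called. A06645, named after its values were seen, was called on Chinese fir wood, where it averaged 12.9 ± 0.774 FPKM against 30.6 ± 0.797 on PDA (SD, n = 3), a call lost with that scaling and without the intermediate libraries (adjusted p = 0.0926, limma).

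Between plant materials, 39 members were higher and 8 lower on poplar wood than on Chinese fir wood, 27 higher and 19 lower on poplar wood than on rice straw, and 7 higher and 28 lower on Chinese fir wood than on rice straw. The shares were 19.7% and 4.04% for poplar wood against Chinese fir wood, where 17.5% and 6.73% of all genes were called. They were 13.6% and 9.6% for poplar wood against rice straw (14.4% of all genes in each direction), and 3.54% and 14.1% for Chinese fir wood against rice straw (5.7% and 14.2%). With median-of-ratios scaling the split was 21 higher and 17 lower for poplar wood against Chinese fir wood (9.64% and 11.4% of all genes), 27 higher and 21 lower for poplar wood against rice straw (13.3% and 15.6%), and 13 higher and 21 lower for Chinese fir wood against rice straw (9.17% and 9.82%). Without Chinese fir wood replicate 3 the unscaled counts for the first of these pairs were 25 higher and 5 lower.

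Genes whose difference between materials kept its call with that scaling included A11744, A15489, A03170 and A05374, higher on poplar wood than on Chinese fir wood by 2.78, 2.72, 3.73 and 1.66 on the scaled log2 scale, and A01411, at -4.63. For Chinese fir wood against rice straw they included A01865 at 3.31, A00837 at 2.11 and A03251 at -2.57. Of these, A00837 was not called for that pair without the intermediate libraries (adjusted p = 0.0929).

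A few members varied widely within groups. A08735, an aspartic protease, had 484, 84.8 and 31.4 FPKM for poplar wood, 28.1, 47.3 and 8.67 for Chinese fir wood and 565, 190.5 and 362 for rice straw, against 61.3, 68.4 and 64.3 for PDA. Its rise on rice straw, 2.37 (SE 0.83, adjusted p = 0.0406, limma), was lost in 7 of the 12 fits that left out 1 library and without the intermediate libraries (adjusted p = 0.214). Those 7 include the fits without Chinese fir wood replicate 1 or poplar wood replicate 2, libraries outside that comparison. A05260, another aspartic protease, had 11.2, 161 and 125 FPKM for poplar wood, 6.22, 6.29 and 6.45 for Chinese fir wood and 13.7, 9.43 and 11.5 for rice straw, against 19.0, 55.7 and 90.6 for PDA. Chinese fir wood was the lowest and very even, and the log2 change was -2.68 (SE 0.80, adjusted p = 0.0151), not called without PDA replicate 3 or without the intermediate libraries (adjusted p = 0.125, limma). A04448, a polyporopepsin, had 39.3, 60.6 and 27.3 FPKM for poplar wood, 16.3, 29.4 and 5.30 for Chinese fir wood and 102, 85.4 and 104 for rice straw, against 26.8, 49.2 and 63.2 for PDA. Every rice straw library was above all others, and Chinese fir wood differed from it by -2.71 (SE 0.50, adjusted p = 0.00148, limma). Among members at a mean of 10 FPKM or more, the highest poplar wood library was at least 2-fold above the lowest for 53 of 121, against 14 of 124 on PDA, so that changes on poplar wood rest on the least even group.

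Members often occur as sets with the same description and the same coding length. There were 31 such sets with 63 members, 30 of them pairs and 1 of 3 genes. The lengths were worked back from the FPKM, and such sets were not counted among all genes. The pairs A01411 and A13890, A15489 and A15557, and A08898 and A11242 correlated over the 12 libraries with r = 0.99, 0.99 and 0.99 on the log2 scale, which is a description over libraries that share 4 groups. The pair A11130 and A16249, aspartic proteases of 1422 bp, ran against each other, with r = -0.68. A16249 had 5.01, 9.11 and 7.25 FPKM for poplar wood, 4.79, 5.54 and 4.20 for Chinese fir wood and 9.97, 12.3 and 10.6 for rice straw, against 17.0, 16.4 and 19.7 for PDA. It was named after its values were seen, and equal length alone does not show that 2 genes are copies.

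Members annotated as extracellular were 86 of the 198 tested. On poplar wood 9 of them rose and 9 fell, on Chinese fir wood 10 rose and 11 fell, and on rice straw 11 rose and 5 fell. The other 112 tested members had 9 rises and 13 falls on poplar wood, 8 and 27 on Chinese fir wood, and 8 and 9 on rice straw. With median-of-ratios scaling the extracellular members had 15 and 7, 15 and 7, and 17 and 2, and the others 12 and 5, 13 and 10, and 12 and 9, so that falls outnumbered rises in neither set. The shares of all genes are those given above for each comparison, and the difference between these 2 sets was not tested.

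Peptide transporters, which bring in the products of secreted peptidases, were examined beside the members. Of 7 such genes 3 rose and 1 fell on poplar wood, 4 rose and 1 fell on Chinese fir wood, and 2 rose and none fell on rice straw, against PDA. With median-of-ratios scaling the count on poplar wood was 4 and 1, and the others did not change. A01680, described as ptr2, a carrier of short peptides in yeast, had 965, 788 and 823 FPKM for poplar wood, 435, 437 and 427 for Chinese fir wood and 362, 347 and 354 for rice straw, against 149, 167 and 179 for PDA. The groups fell into 4 separate levels, with log2 changes of 2.37 (SE 0.15, adjusted p = 9.69e-07) for poplar wood, 1.39 (SE 0.15, adjusted p = 2.3e-05) for Chinese fir wood and 1.1 (SE 0.15, adjusted p = 0.000211) for rice straw (limma). The call on rice straw was lost with TPM. A05192, another ptr2 gene, had 502, 445 and 196 FPKM on poplar wood and 272, 338 and 226 on Chinese fir wood, against 113, 101 and 97.1 on PDA, with a log2 change of 1.76 (SE 0.31, adjusted p = 0.000934) on poplar wood and 1.40 (SE 0.31, adjusted p = 0.00321) on Chinese fir wood (limma). It was named after its values were seen, as was A08707 (OPT1), an oligopeptide transporter in yeast. A08707 had 702, 762 and 719.6 FPKM on rice straw against 207, 183 and 159.9 on PDA, a log2 change of 1.99 (SE 0.36, adjusted p = 0.00117, limma). A09752, also described as ptr2, had 147, 47.8 and 44.8 FPKM for poplar wood, 34.0, 26.6 and 48.2 for Chinese fir wood and 129.9, 189 and 162 for rice straw, against 279.7, 261 and 232 for PDA. It was highest on PDA in every library, and the log2 change was -1.90 (SE 0.39, adjusted p = 0.00214) on poplar wood and -2.83 (SE 0.39, adjusted p = 0.000113) on Chinese fir wood (limma).

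**Figure D5:**
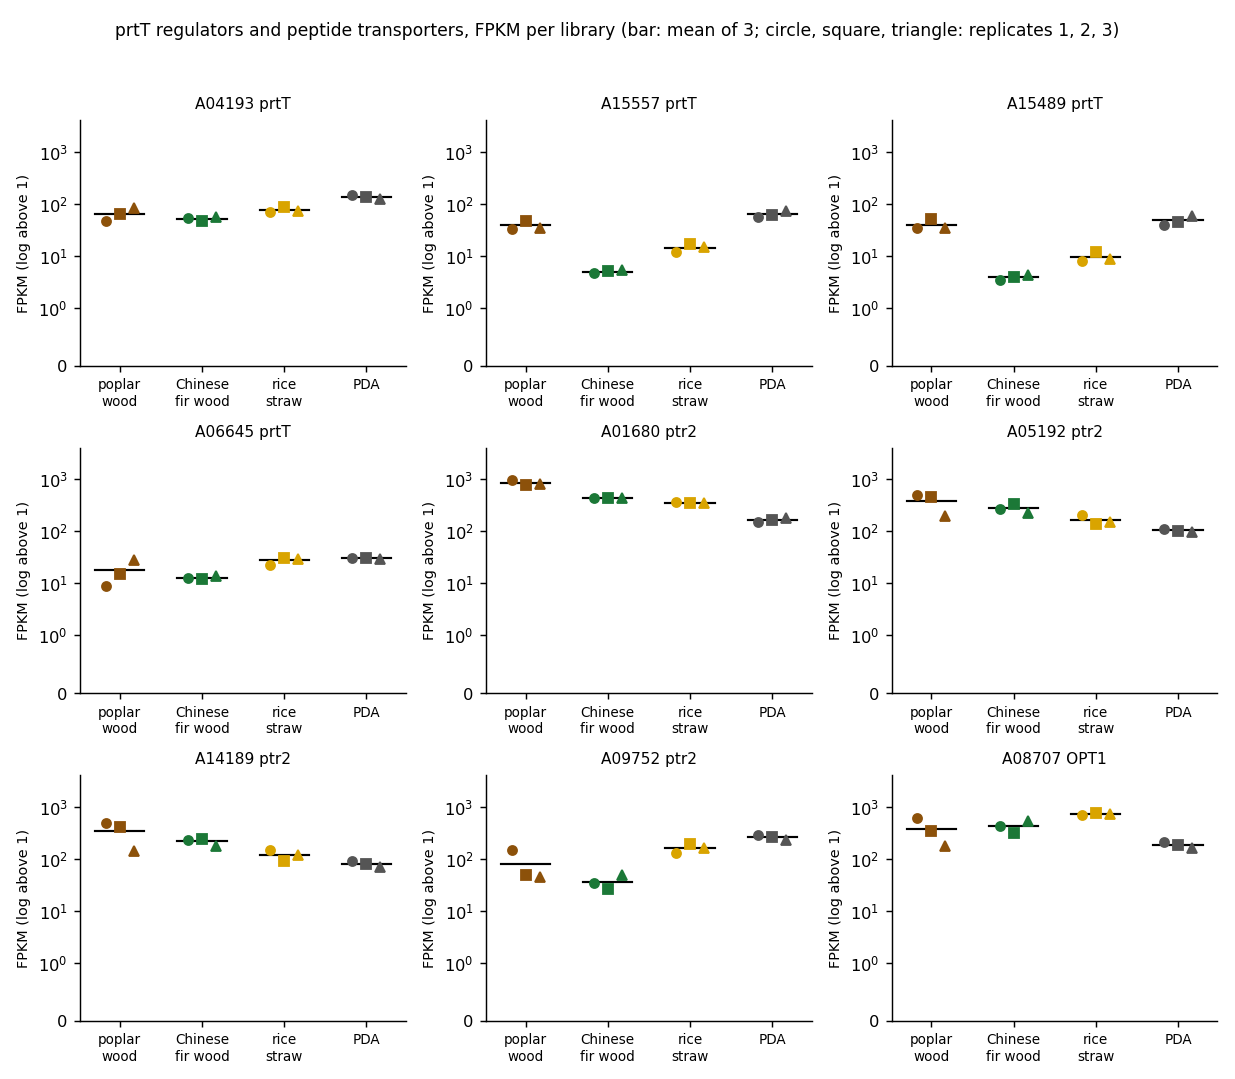
FPKM in each library (vertical axis, log scale above 1 and linear below) of the 4 prtT genes and of 5 peptide transporters in the 4 groups; bars are means of 3. A15557 and A15489 are lowest on Chinese fir wood, A01680 is above PDA on all 3 plant materials, and A09752 is below it.

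Amino acid carriers and nitrogen assimilation completed the pathway. Of 42 tested amino acid permeases and transporters, 2 rose and 5 fell on poplar wood, 5 rose and 9 fell on Chinese fir wood, and 6 rose and 6 fell on rice straw. Scaled by median of ratios they were 2 and 2, 9 and 7, and 8 and 2. The most abundant gene called, A03975, a proline permease, had 3226, 1861 and 1469 FPKM for poplar wood, 2655, 3021 and 2391 for Chinese fir wood and 2395, 2235 and 2209.6 for rice straw, against 1035, 987 and 986 for PDA. All libraries from plant material were above PDA, with log2 changes of 1.04 (SE 0.25, adjusted p = 0.00563) for poplar wood, 1.42 (SE 0.25, adjusted p = 0.000684) for Chinese fir wood and 1.18 (SE 0.25, adjusted p = 0.00325) for rice straw (limma). The change on poplar wood was 0.72 and not called without poplar wood replicate 1, and leaving out the intermediate libraries ended the calls on poplar wood and on rice straw (adjusted p = 0.0699 and 0.0834). A10761, described as DIP5, a carrier of acidic amino acids in yeast, averaged 66.9 ± 25.3 FPKM on poplar wood and 136 ± 3.90 on Chinese fir wood, against 536 ± 37.9 on PDA (SD, n = 3), and fell by 3.04 (adjusted p = 1.81e-06) and 1.97 (adjusted p = 2.77e-05, limma) on the log2 scale. A16988, also described as a proline permease, fell on rice straw, with 19.2, 25.8 and 23.2 FPKM there against 78.5, 68.0 and 53.9 on PDA and a log2 change of -1.51 (SE 0.40, adjusted p = 0.0123, limma), which was not called without rice straw replicate 1 or without the intermediate libraries.

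Of 17 tested genes of nitrogen assimilation, none rose and 10 fell on poplar wood, none rose and 6 fell on Chinese fir wood, and 1 rose and 2 fell on rice straw. Among all genes 8.3% rose and 17.1% fell on poplar wood, 5.91% rose and 24.5% fell on Chinese fir wood, and 6.81% rose and 14.1% fell on rice straw, shares that stand beside the transporter and permease counts as well. The counts of the 17 genes with median-of-ratios scaling were 1 and 10, none and 4, and 1 and none. A08108, glutamine synthetase, which joins ammonium to glutamate, had 92.1, 255 and 345 FPKM for poplar wood, 331, 255 and 400.1 for Chinese fir wood and 322, 337 and 348 for rice straw, against 781, 784 and 801 for PDA. PDA was the highest in every library, and the log2 change was -1.97 (SE 0.37, adjusted p = 0.00142) for poplar wood, -1.29 (SE 0.37, adjusted p = 0.0136) for Chinese fir wood and -1.23 (SE 0.37, adjusted p = 0.0227) for rice straw (limma). With median-of-ratios scaling Chinese fir wood gave -0.69 and rice straw -0.94, neither called. The call on Chinese fir wood was also lost without Chinese fir wood replicate 2, that on rice straw without any 1 rice straw or PDA library, and both without the intermediate libraries. A00494, an ammonium transporter, was the single rise, with 114, 111 and 115 FPKM on rice straw against 35.7, 30.1 and 23.8 on PDA and a log2 change of 1.91 (SE 0.38, adjusted p = 0.00233, limma), not called without the intermediate libraries (adjusted p = 0.0556). Both lists were chosen with earlier results known and hold neighbouring functions as well, among them a folylpolyglutamate synthase.

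Genes described as inhibitors of carboxypeptidase Y, homologs of yeast TFS1, numbered 4. A09559 had 37.4, 81.7 and 85.5 FPKM for poplar wood, 9.09, 13.2 and 8.40 for Chinese fir wood and 18.4, 12.1 and 13.3 for rice straw, against 8.89, 12.2 and 12.02 for PDA. It was high on poplar wood alone, with a log2 change of 2.45 (SE 0.31, adjusted p = 8.27e-05, limma). A05212 was lower on poplar wood than on PDA, with 0.0590, 1.33 and 2.56 FPKM against 7.43, 7.41 and 5.83 and a log2 change of -1.93 (SE 0.34, adjusted p = 0.000839, limma), not called with a pseudocount of 5. A02048 was lower on rice straw, with 9.96, 7.34 and 9.89 FPKM against 20.7, 29.7 and 34.2 on PDA and a log2 change of -1.52 (SE 0.34, adjusted p = 0.00436, limma), not called without the intermediate libraries (adjusted p = 0.079).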

How the data were processed

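RNA of 12 mycelium libraries was sequenced after poly(A) selection with a stranded kit, per the labels' protocols. The authors deposited FPKM per gene, and fastp, HISAT2, HTSeq and DESeq2 stand in the submitters' processing notes without roles, with the genome build not given in the sources used here. The FPKM steps gave whole reads for all 16059 genes, within 0.001 reads at low counts and with a tolerance that widened in proportion at high counts. The depths and the coding lengths were worked back from these steps, with lengths divisible by 3 tried first.

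The main test was limma (3.58.1, R 4.3.3) on log2(FPKM + 1) with 1 fit of the 4 groups, a mean trend and Benjamini-Hochberg adjustment over the 13974 genes that reached 1 FPKM in 3 or more libraries. The fit was run on simulated data with known changes and the same spread in every group. That setting does not cover the wider spread on poplar wood. Summaries used Python 3.11.15, pandas 2.3.3 and numpy 2.4.6. Alternatives were median-of-ratios scaling, TPM, other pseudocounts and filters, each library left out, the 3 intermediate libraries left out, a replicate block, 2-group fits, and voom on the worked-back reads, the last chosen after seeing the data.

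Members and lists were chosen with earlier results of these data known. Genes were named by rule: against PDA the 6 largest rises and falls among called members with a mean of 5 FPKM or more in the higher group and no overlap, between plant materials 3 and 3, the 10 most abundant members, the most abundant of each class, and in each related list the most abundant called gene in each direction. Other genes are marked as named after their values were seen. For these, single libraries were not left out in turn. Same-numbered libraries did not deviate together (r from -0.192 to 0.327 over 18 pairs).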

Additional observations from a re-analysis of the deposited data

Results flagged for a closer look

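A16042, a dipeptidyl peptidase 3, moved in opposite directions on poplar wood and rice straw. Its log2 change against PDA was -1.07 on poplar wood and 1.21 on rice straw, and the difference between these, tested directly as poplar wood against rice straw, was -2.28 (adjusted p = 6.72e-05, limma). All 3 poplar wood libraries were below and all 3 rice straw libraries above those of PDA. The fall was not called with median-of-ratios scaling (-0.85), and without the 3 intermediate libraries neither change from PDA was called (adjusted p = 0.0862 and 0.11), while the direct difference was (-2.26, adjusted p = 0.00396).

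A03251, a dipeptidyl-peptidase 5, moved in opposite directions on Chinese fir wood and rice straw. Its log2 change against PDA was -1.49 for Chinese fir wood and 1.35 for rice straw, and the direct difference of Chinese fir wood from rice straw was -2.84 (adjusted p = 1.71e-05, limma). All 3 Chinese fir wood libraries were below and all 3 rice straw libraries above those of PDA. The fall was not called with median-of-ratios scaling (-0.94), nor the rise without the 3 intermediate libraries (adjusted p = 0.0694). Opposite calls against PDA were rarer among members, at 1.01%, than among all genes, at 2.22%. No cause was tested for either gene.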

How the results depend on the processing

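Of 152 calls of named genes, 44 were lost without the 3 intermediate libraries, 13 with median-of-ratios scaling, 19 with a pseudocount of 5, 3 with TPM, 2 with voom, and 3 to 8 when 1 library was left out; none reversed. The counts of members called (higher, then lower) that moved by over 1.5 times were these. With no fold threshold they were 32 and 49 for poplar wood against PDA, 71 lower for Chinese fir wood against PDA, 33 and 35 for rice straw against PDA, 64 and 18 for poplar wood against Chinese fir wood, 51 lower for poplar wood against rice straw, and 12 and 56 for Chinese fir wood against rice straw. Without the intermediate libraries they were 14 lower for poplar wood and 6 and 9 for rice straw against PDA, 20 and 5 for poplar wood against Chinese fir wood, 1 and 18 for Chinese fir wood against rice straw, and 63 in the F test; fewer samples were fitted. With median-of-ratios scaling they were 12 lower for poplar wood, 28 and 17 for Chinese fir wood and 29 higher for rice straw against PDA, 21 and 17 for poplar wood against Chinese fir wood, and 13 higher for Chinese fir wood against rice straw. With a pseudocount of 5 they were 13 lower for poplar wood against PDA, 24 higher for poplar wood against Chinese fir wood, and 4 and 13 for Chinese fir wood against rice straw. Fitting only the 2 groups gave 5 lower for poplar wood against Chinese fir wood. Beyond what these settings' construction shows, the cause was not tested.

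With 1 library left out the counts ran from 17 to 26 higher and 16 to 24 lower for poplar wood, 14 to 18 and 33 to 41 for Chinese fir wood, and 15 to 21 and 13 to 19 for rice straw, all against PDA. They ran from 25 to 42 and 5 to 10 for poplar wood against Chinese fir wood, the lowest being without Chinese fir wood replicate 3, from 22 to 36 and 18 to 26 for poplar wood against rice straw, from 5 to 9 and 26 to 31 for Chinese fir wood against rice straw, and from 122 to 166 in the F test. Replicate numbers did not pair the libraries. With a replicate block the counts were 20 and 21 for poplar wood, 17 and 39 for Chinese fir wood and 19 and 15 for rice straw against PDA, 40 and 8, 29 and 19, and 8 and 28 between plant materials in the order above, and 140 in the F test, and 1 call of a named gene, A03170 for Chinese fir wood against PDA, was lost. At 1 FPKM a gene of median length had 33.1 to 44.0 reads, so members near that level are the least precise.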
